A study of Drosophila melanogaster with 42 samples.

Results

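Transcripts of the head and thorax of young adult male Drosophila melanogaster were compared between Indy206 flies and controls at days 5 and 10 of adult life. The comparison used the arrays whose titles give either genotype at one of these ages, which are 8 of the study's 42 arrays. There were 4 arrays of Indy206 flies, 2 at day 5 and 2 at day 10, and 4 arrays of control flies, 2 at day 5 and 2 at day 10. Indy206 flies carried the Indy206 allele over a Canton-S chromosome, written Indy206/CS. The controls, which the labels call genetically matched, carried a chromosome of line 2216 over Canton-S, written 2216/CS. Both genotypes were therefore heterozygous with Canton-S, and Indy206 flies kept an unaltered copy of the gene. Each sample was RNA pooled from 15 males and hybridized with a common reference pooled from control RNA of all ages. The other 34 arrays, of the same genotypes at days 20, 30, 40, 50, 70 and 80, served as a separate set.

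Indy (I'm Not Dead Yet) encodes a transporter of the plasma membrane that carries citrate and related acids into cells, mainly in the midgut, fat body and oenocytes. Citrate inside the cell can enter the TCA cycle or be cleaved to acetyl-CoA for the synthesis of fatty acids. Flies with reduced Indy activity are known to live longer. Most of the midgut, fat body and reproductive tract lies in the abdomen, which the dissection left out.

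Each of 20000 spots has a log2 ratio, sample over reference, so that a value of 0 is the level of the reference and a difference of 1 is a doubling. The direction and the base of the logarithm are likely, not stated, and every sign below rests on that reading. Spots of 1 gene were averaged, which gave 19077 units, 9905 of them single genes. Medians of the 8 arrays lay within 0.01 of 0, but their spread differed. Standard deviations at day 5 were 0.41 and 0.35 in Indy206 and 0.42 and 0.37 in control. At day 10 they were 0.66 and 0.48 in Indy206 and 0.73 and 0.67 in control. Correlations between pairs of these arrays ran from 0.593 to 0.909. Replicate 1 of Indy206 at day 10 correlated at 0.867 and 0.909 with the day 10 controls and at 0.849 with its own replicate. Photoreceptor markers had array medians between 0.32 and 0.86 and odorant-binding markers of the head between 0.15 and 0.61, while testis markers lay between -2.89 and -0.64 and accessory gland markers between -3.70 and -1.45. Photoreceptor and odorant-binding medians were thus above 0, and testis and accessory gland medians below 0, on all 8 arrays. Whether these signs reflect the labelled tissue was not tested. Other lists were closer to 0 or mixed. Array medians ran from -0.08 to 1.46 for muscle and from 0.07 to 0.54 for neuron markers. They ran from -1.05 to 0.33 for midgut enzymes and from -0.20 to 0.08 for fat body markers. All are relative to a reference whose own tissue make-up is not given in the sources used here. A lower level in such samples can mean fewer cells of a type or less RNA per cell, which cannot be told apart.

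The Indy transcript was read before any other gene, as a check of the labels. Its log2 ratios were -1.01 and -0.67 at day 5 and -1.46 and -0.98 at day 10 in Indy206 flies, against -0.13 and -0.46 at day 5 and -0.19 and -0.27 at day 10 in control flies. All 4 Indy206 arrays lay below all 4 control arrays. With age as a block, Indy206 minus control was -0.77 ± 0.15 (SE, n = 4 per genotype; 95% interval -1.12 to -0.41), which is 0.588 of the control level. The difference was -0.54 at day 5 and -0.99 at day 10, and the 2 spots of the gene gave -0.75 and -0.78. At days 20 to 80 the difference was -0.92. An exact two-sided permutation test, in which genotype labels were exchanged within each age, gave p = 0.0556, the smallest that its 36 arrangements allow. Limma's unadjusted p was 0.00106 and its adjusted p over all 19077 units was 0.548, so Indy was not called among all genes in young flies. A fit with the median of the midgut enzyme markers as a covariate, chosen after the data were seen, gave -0.34 for Indy.

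**Figure D1:**
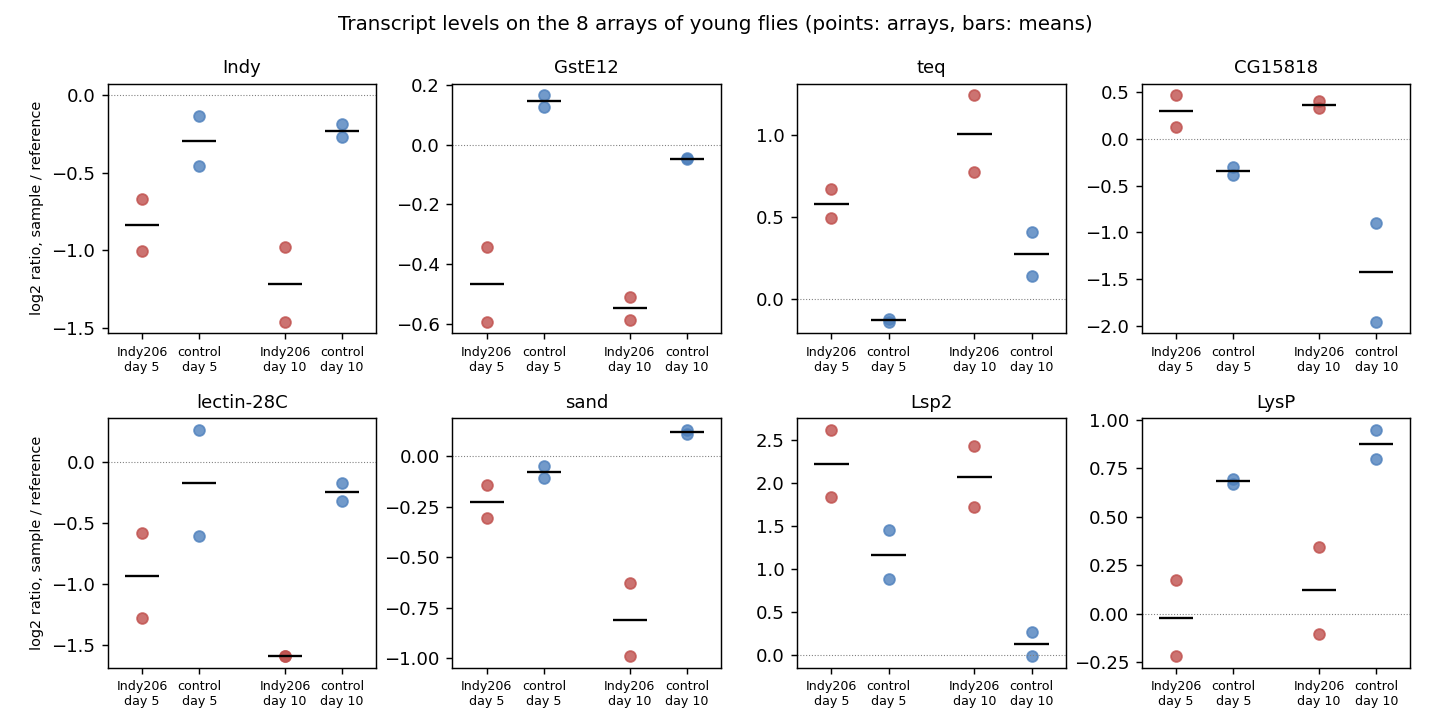
Log2 ratios of sample over reference for 8 genes on the 8 arrays, Indy206 in red and control in blue at day 5 and at day 10, with bars at the mean of 2 arrays; the vertical scale differs between panels. Indy206 lies below control on all arrays for Indy, GstE12 and LysP and above control on all arrays for teq, CG15818 and Lsp2, while for sand the groups lie close at day 5 and far apart at day 10.

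Over all units, no unit was called between Indy206 and control in young flies. Limma with age as a block gave 0 of 19077 units with an adjusted p under 0.05 (0 percent), 0 higher and 0 lower in Indy206, and the smallest adjusted p was 0.548. At an unadjusted p under 0.05 there were 1260 units (6.60 percent), 818 higher (4.29 percent) and 442 lower (2.32 percent). The 4 Indy206 arrays lay wholly above the 4 control arrays for 224 units (1.17 percent) and wholly below them for 212 (1.11 percent). A typical 95% interval reached 0.22 on either side of a difference, and the median absolute difference was 0.08, so most differences of the observed size could not be resolved with 4 arrays per genotype. The genes named next are those of smallest p with the same sign at both ages; the order by p chose them and none was called.

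Among the genes of smallest p that stood higher in Indy206, Qsox2, a sulfhydryl oxidase, had log2 ratios of -0.77, -0.54, -1.87 and -1.73 in Indy206 flies, against -1.30, -1.45, -2.34 and -2.44 in control flies, with day 5 arrays given before those of day 10, as in the paragraphs that follow. Its level was higher in Indy206 at each age, although the Indy206 arrays of day 10 lay below the control arrays of day 5. The difference was 0.65 ± 0.085 (SE, n = 4 per genotype; limma adjusted p = 0.548). The serine protease gene teq (Tequila), known for a role in long-term memory, had log2 ratios of 0.49, 0.67, 1.25 and 0.78 in Indy206 flies, against -0.14, -0.12, 0.14 and 0.41 in control flies. Every Indy206 array lay above every control array for teq, with a difference of 0.73 ± 0.12 (SE; limma adjusted p = 0.548). Its 3 spots gave differences between 0.32 and 0.97.

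Lsp2, a hexamerin that the fat body secretes and that stores amino acids, showed the largest difference of the genes named on the higher side. Its log2 ratios were 2.61, 1.83, 2.42 and 1.71 in Indy206 flies, against 1.45, 0.88, -0.01 and 0.27 in control flies. The groups did not overlap, and the difference was 1.50 ± 0.27 (SE; limma adjusted p = 0.548), 1.06 at day 5 and 1.94 at day 10. With the midgut covariate it was 0.79. Among the 8 other measured fat body markers (of 13 with Lsp2) 7 lay above 0 and 1 below, and their median difference was 0.06. At days 20 to 80 the Lsp2 difference was -0.80, and the change between the young and the later ages was not called (limma adjusted p = 0.850).

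Of the other higher genes, Fatp2, a fatty acid transport protein, stood at 0.38 ± 0.071 above control, Acbp4, an acyl-CoA binding protein, at 0.39 ± 0.077, and Sc2, a homologue of the reductase of very long chain fatty acid elongation, at 0.34 ± 0.068 (SE each). The differences at day 5 and day 10 were 0.38 and 0.38 for Fatp2, 0.42 and 0.35 for Acbp4 and 0.41 and 0.27 for Sc2. For knk (knickkopf), which organizes chitin in the cuticle, the difference was 0.56, and for zda (zonda), an immunophilin of autophagy, 0.33. Prtl99C, a protamine-like protein of sperm chromatin, stood 0.45 higher and Gld2, a poly(A) polymerase needed in spermatogenesis, 0.51 higher. The C-type lectin gene lectin-30A stood 0.92 higher and Jon25Biii, a Jonah serine protease of the midgut, 0.97 higher. For Fatp2, Acbp4, Sc2, knk, zda, Prtl99C, Gld2, lectin-30A and Jon25Biii the 4 arrays of Indy206 overlapped those of control. At each age alone the Indy206 arrays of these genes lay above those of control. Of 6 measured testis markers 4 lay above 0, up to 0.86 for ProtA, and 2 below, down to -0.16 for betaTub85D, with a median of 0.22 that was -0.18 under quantile normalization. In the deposited values their array medians were higher in Indy206 at each age, at -0.96 and -0.64 at day 5 and -2.40 and -2.17 at day 10, against -1.18 and -1.27 at day 5 and -2.82 and -2.89 at day 10 in control flies. With the testis and accessory gland medians as a covariate lectin-30A stood at 0.50, and no gene named in this comparison changed sign. Quantile normalization gave 0.08 for Gld2, 0.21 for Prtl99C, 0.37 for Qsox2 and 0.54 for lectin-30A. The midgut covariate gave 0.51 for Jon25Biii, which is itself a member of the list whose median was that covariate.

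On the lower side, GstE12, a glutathione S-transferase, had the smallest p. Its log2 ratios were -0.59, -0.34, -0.59 and -0.51 in Indy206 flies, against 0.13, 0.17, -0.04 and -0.05 in control flies. The groups lay apart with little spread among control arrays, and the difference was -0.56 ± 0.077 (SE; limma adjusted p = 0.548). LysP, a lysozyme, had 0.17, -0.22, -0.10 and 0.34 in Indy206 flies, against 0.67, 0.70, 0.80 and 0.95 in control flies. Its groups also lay apart, with a difference of -0.73 ± 0.12 (SE; limma adjusted p = 0.548). LysP is on the list of midgut enzymes, whose median went the other way.

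The C-type lectin gene lectin-28C showed the largest difference of the named lower genes, -1.06 ± 0.23 (SE; limma adjusted p = 0.712). Its log2 ratios were -1.28, -0.59, -1.59 and -1.60 in Indy206 flies, against 0.27, -0.61, -0.32 and -0.17 in control flies. A single control array of day 5, at -0.61, reached into the range of Indy206. P5cr-2, a reductase of proline synthesis, stood at -0.50 ± 0.11, and scyl (scylla), an inhibitor of growth through the TOR pathway, at -0.42 ± 0.092; in both the groups lay apart. Vps33B, a protein of vesicle traffic, stood at -0.35 ± 0.064, also with the groups apart. Amt, an ammonium transporter, stood at -0.46, the esterase gene alpha-Est2 at -0.45, tara (taranis), a transcriptional co-regulator, at -0.45, the ecdysone-induced transcription factor gene Eip93F at -0.43 and the carbonic anhydrase gene CAH4 at -0.35. With the midgut covariate lectin-28C stood at -0.53 and scyl at -0.22. For Amt, alpha-Est2, tara, Eip93F and CAH4 the 4 arrays of Indy206 overlapped those of control.

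**Figure D2:**
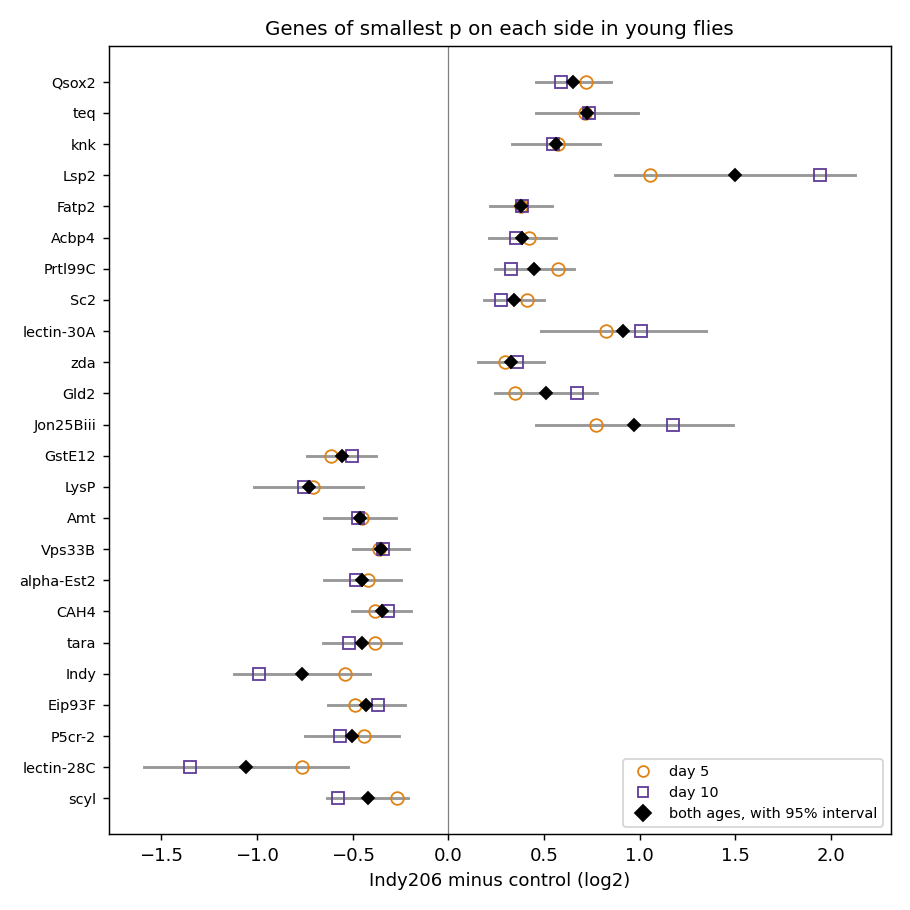
Indy206 minus control on the log2 scale for the 12 genes of smallest p on each side with the same sign at both ages; circles are day 5, squares day 10 and diamonds both ages with the 95% interval. The intervals exclude 0 because the genes were ordered by p; no gene was called over all 19077 units, where the smallest adjusted p was 0.548. Lsp2 at 1.50 and lectin-28C at -1.06 lie farthest from 0.

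A single unit was called once the spread was estimated over all 42 arrays, 1 of 19077 (0.00524 percent). It is a spot with no gene paired to it here. Its log2 ratios were 1.29 and 0.86 at day 5 and 1.66 and 1.02 at day 10 in Indy206 flies, against -0.06 and 0.07 at day 5 and -0.44 and -0.60 at day 10 in control flies. The difference was 1.46 (limma adjusted p = 2.3e-06 with that spread, and 0.548 with the spread of the 8 young arrays), and 1.56 at days 20 to 80.

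The arrays of days 20 to 80 gave a set of genes chosen without the young arrays. There, limma with 12 group means called 75 of 19077 units (0.393 percent), 31 higher (0.162 percent) and 44 lower (0.231 percent) in Indy206. Of these, 60 were single genes, 23 higher and 37 lower. In young flies 46 of the 60 had the same sign as later and 14 the opposite one, where 45.5 percent of all 19077 units had the same sign in both sets. By direction, 17 of 23 higher genes and 29 of 37 lower genes kept their sign. With any 1 of the 8 young arrays left out, between 41 and 50 of the 60 had the same sign. None of the 60 was called in young flies, where 15 had the same sign with an unadjusted p under 0.05. Of all units, 6.60 percent had such a p in either direction. Indy, the altered gene, is itself among the 60, the 46 and the 15.

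The young differences of these genes were smaller than the later ones. The median was 0.12 in young flies and 0.35 later for the 23 higher genes, and -0.17 in young flies and -0.44 later for the 37 lower genes. The median ratio of the young to the later difference was 0.350. For 11 of the 60, Indy among them, the young groups did not overlap, in the same direction as later in each case. Of all units, 2.29 percent had young groups that did not overlap in either direction. Genes chosen because they were called at the later ages have later differences that are large partly through that choice, so the ratio is a description.

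CG15818 had the largest difference of the 60 genes, at the later ages and in young flies. Its log2 ratios were 0.47 and 0.13 at day 5 and 0.34 and 0.41 at day 10 in Indy206 flies, against -0.38 and -0.30 at day 5 and -0.89 and -1.96 at day 10 in control flies. The groups lay apart, and the difference was 1.22 ± 0.29 (SE, n = 4 per genotype; limma adjusted p = 0.726) in young flies, and 1.80 at days 20 to 80. Among the other later-higher genes, teq differed by 0.73 in young flies and 0.65 later, CG46491 by 0.52 in young flies and 0.59 later, CG18180 by 0.86 in young flies and 0.72 later and CG18179 by 0.82 in young flies and 0.42 later. GstE1, a glutathione S-transferase whose young groups overlapped, differed by 0.43 in young flies and 0.84 later; the young value was 0.66 without replicate 1 and 0.21 without replicate 2 of the day 10 controls. On the lower side, GstE12 differed by -0.56 in young flies and -0.63 later, CG11400 by -0.60 in young flies and -0.60 later, alpha-Est2 by -0.45 in young flies and -0.54 later and lectin-28C by -1.06 in young flies and -0.86 later.

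For other genes called at the later ages the young values were smaller or opposite, and several depended on which array of the day 10 controls was kept. The regucalcin homologue smp-30 had log2 ratios of -0.36 and -0.57 at day 5 and -0.59 and -0.83 at day 10 in Indy206 flies, against -0.24 and -0.56 at day 5 and -1.54 and -0.35 at day 10 in control flies. The groups overlapped, and the difference was 0.08 ± 0.24 (SE) in young flies and -1.04 at days 20 to 80. Without replicate 1 of the day 10 controls, which held the lowest value, the young difference was -0.19, and without their replicate 2 it was 0.29. Ctr9, a subunit of the Paf1 complex of transcription elongation, differed by 0.23 in young flies and 0.68 later. Its young value was 0.09 without replicate 1 and 0.28 without replicate 2 of the day 10 controls. It was -0.04 with the testis and accessory gland covariate and -0.06 with the midgut covariate. Iml1 differed by 0.04 in young flies and 0.47 later, and CG5160 by 0.25 in young flies and 0.46 later. Cyp4d21 differed by -0.17 in young flies and -0.73 later, and CG13742 by -0.02 in young flies and -0.77 later. For veil the differences were -0.29 in young flies and -0.79 later, and for Cyp6d2 -0.27 in young flies and -0.65 later. Among the 14 genes of opposite sign were the chaperonin subunits CCT2, at -0.09 in young flies and 0.27 later, and CCT5, at -0.16 in young flies and 0.40 later, and the proteasome subunit Rpn2, at -0.16 in young flies and 0.19 later. Argk1, arginine kinase, stood at 0.33 in young flies and -0.28 later, and ND-39, a subunit of complex I, at 0.10 in young flies and -0.29 later. Without replicate 1 of the day 10 controls the young values of CCT5 and Rpn2 were 0.06 and 0.03, the sign of the later ages, and that of Argk1 was 0.02. Without replicate 2 of these controls the values were -0.31 for CCT5, -0.29 for Rpn2 and 0.58 for Argk1. Without replicate 1 of Indy206 at day 5 the young value of CCT2 was 0.06. Opposite signs numbered 10 of 60 without replicate 1 of the day 10 controls and 19 of 60 without their replicate 2. None of these genes was called for the difference between young and later ages.

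**Figure D3:**
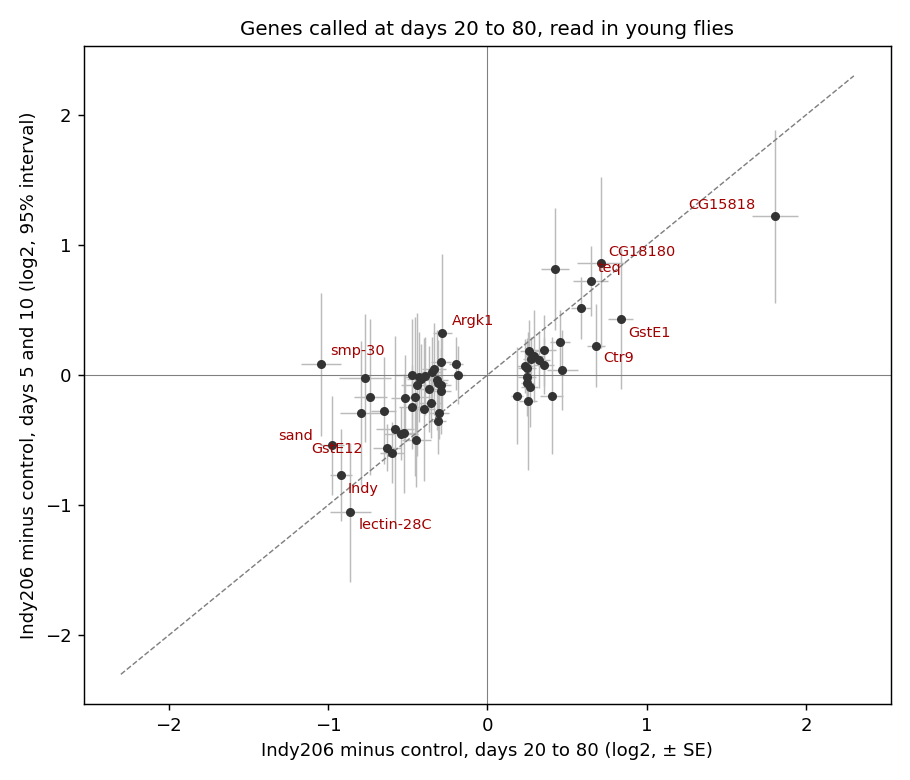
The 60 genes called at days 20 to 80, with Indy206 minus control at those ages on the horizontal axis (log2, bars ± SE) and at days 5 and 10 on the vertical axis (log2, bars 95% interval); the dashed line marks equal differences. Of the 60 points, 46 have the same sign on both axes, and most lie closer to 0 on the vertical axis, as smp-30 does at 0.08 against -1.04.

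The difference between young and later ages was tested in one model of all 42 arrays. Limma called 0 of 19077 units (0 percent), with 1041 at an unadjusted p under 0.05 (5.46 percent) and a smallest adjusted p of 0.850. The genes of smallest p were smp-30, with young minus later of 1.13, the translation initiation factor gene eIF4G1 at 0.50, Argk1 at 0.61, the telomere protein gene mu2 and the microtubule-severing gene Fign (fidgetin) on one side. On the other side they were Ctr9 at -0.45, the splicing factor gene fand, the muscarinic receptor gene mAChR-B, CAH4 at -0.44 and Vps33B at -0.37. For Argk1 the value was 0.26 without replicate 1 and 0.95 without replicate 2 of the day 10 controls. The count depended on single arrays. It was 35 without replicate 1 of the day 10 controls, 17 without replicate 2 of Indy206 at day 5, 16 without replicate 1 of Indy206 at day 10 and 8 without replicate 2 of Indy206 at day 10. It was 6 without replicate 2 of the day 10 controls, 5 without replicate 1 of Indy206 at day 5, 4 without replicate 3 of the day 5 controls and 2 without replicate 1 of the day 5 controls. Over all units the young and later differences had a Pearson correlation of -0.23, a description across units that share arrays and are not independent replicates.

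Read at each age alone, no unit was called either. At day 5 limma called 0 of 19077 units (0 percent), with 647 at an unadjusted p under 0.05 (3.39 percent) and a smallest adjusted p of 0.999. The genes of smallest p at day 5 were Qsox2 at 0.72, CG6073 at 0.60 and CG14297 at 0.79 on the higher side. On the lower side they were GstE12 at -0.61, Pen (Pendulin), an importin alpha, at -0.75 and AANATL7, an arylalkylamine N-acetyltransferase homologue, at -0.57. Leaving out replicate 2 of Indy206 at day 5 gave 6 calls at that age, and leaving out replicate 3 of the day 5 controls gave 2.

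At day 10 limma called 0 of 19077 units (0 percent), with 1194 at an unadjusted p under 0.05 (6.26 percent) and a smallest adjusted p of 0.139. CG6271 had log2 ratios of -0.32 and -0.94 in Indy206 flies of day 10, against -3.06 and -2.95 in control flies of day 10, a difference of 2.37. At day 5 it had 0.02 and 0.15 in Indy206 flies, against 0.01 and 0.28 in control flies, so it was the day 10 controls that stood apart. The forkhead transcription factor gene jumu (jumeau) had -3.10 and -3.19 in Indy206 flies of day 10, against -4.76 and -4.42 in control flies of day 10, a difference of 1.44, and 0.14 at day 5. CG13723 differed by 1.23 at day 10. On the lower side the potassium channel gene sand (sandman) had -0.99 and -0.63 in Indy206 flies of day 10, against 0.13 and 0.11 in control flies of day 10, a difference of -0.93. Its day 5 difference was -0.15 and its later one -0.97. The count at day 10 rested on single arrays: 176 without replicate 1 of Indy206 at day 10, 104 without replicate 2 of the day 10 controls, 33 without replicate 1 of the day 10 controls and 8 without replicate 2 of Indy206 at day 10. A group left with 1 array is assumed to vary like the other groups in such a fit.

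The change of the genotype difference between day 5 and day 10 was tested as an interaction. Limma called 0 of 19077 units (0 percent), with 613 at an unadjusted p under 0.05 (3.21 percent) and a smallest adjusted p of 0.997. Of all units, 55.4 percent had the same sign at both ages, and the 2 sets of differences had a Pearson correlation of 0.23 across units. The genes of smallest p whose difference was higher at day 10 were jumu, Pen, Shmt, AANATL7 and Spn38F. Shmt, the serine hydroxymethyltransferase of one-carbon metabolism, had 0.53 and 0.35 in Indy206 flies of day 10 and -0.25 and -0.51 in those of day 5, against -0.29 and -0.37 at day 10 and -0.03 and -0.16 at day 5 in control flies. It stood above control at day 10 and below control at day 5, a change of 1.05.

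Spn38F, a serpin, differed by 1.36 at day 10 and by -1.01 at day 5, on values near the lowest of several arrays. In control flies of day 10 it had -5.60 and -5.675, where the lowest values of those arrays were -6.05 and -5.682. In Indy206 flies of day 5 it had -3.98 and -4.38, each the lowest value of its array. The genes of smallest p whose difference was lower at day 10 were Mal-B1, a maltase, with a change of -1.16, List, a neurotransmitter transporter homologue, with -0.74, lace, a subunit of serine palmitoyltransferase, with -0.82, sand with -0.78 and InR. InR, the insulin receptor, had -0.44 and -0.40 in Indy206 flies of day 10 and -0.14 and -0.27 in those of day 5, against -0.04 and 0.14 at day 10 and -0.33 and -0.40 at day 5 in control flies. It lay below control at day 10 and above control at day 5. The interaction gave 17 calls without replicate 1 of the day 10 controls, 6 without replicate 2 of Indy206 at day 5, 5 without replicate 1 of Indy206 at day 10, 2 without replicate 2 of Indy206 at day 10 and 1 without replicate 2 of the day 10 controls.

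**Figure D4:**
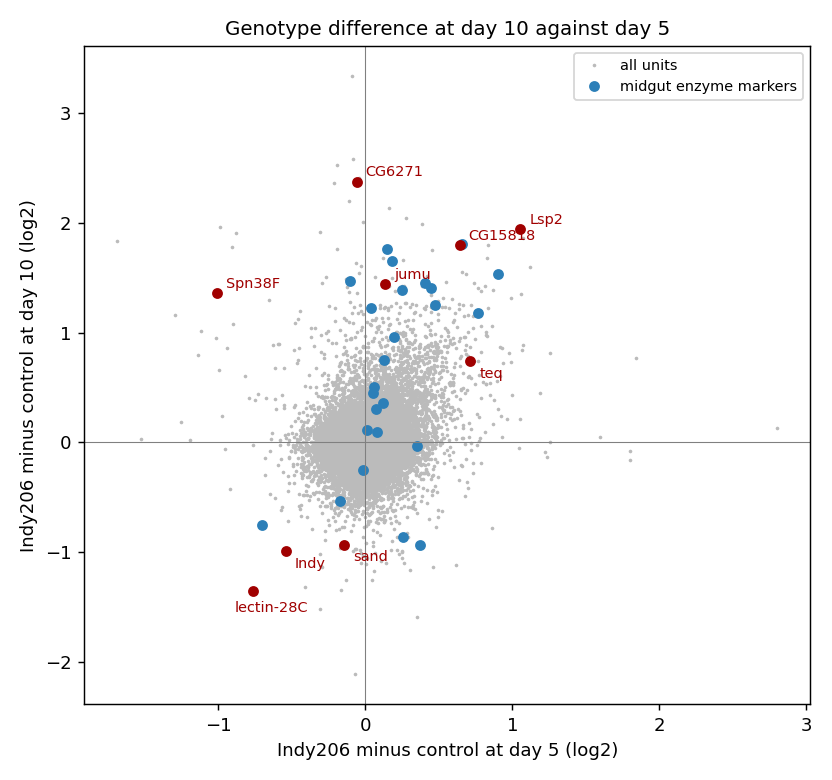
Indy206 minus control at day 5 (horizontal axis) and at day 10 (vertical axis), both log2, for all 19077 units in grey, with the measured midgut enzyme markers in blue and named genes in red. Lsp2 and CG15818 lie above 0 at both ages and Indy and lectin-28C below 0 at both, while CG6271 is near 0 at day 5 and at 2.37 at day 10.

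No member of any gene list was called in young flies. Members are counted here above and below 0, beside 53.9 percent of all units above 0 and 46.1 percent below. The medians were small and depended on single arrays: of 31 lists, 16 changed the sign of their median with at least 1 array left out, 11 of them without replicate 1 of the day 10 controls. The respiratory chain, which passes electrons to oxygen and drives ATP synthase, was spread around 0. In complex I, 13 of 22 measured members (of 35) lay above 0 and 9 below, with a median difference of 0.02. In complexes II and III it was 5 above and 3 below with a median of 0.08, in complex IV 5 above and 5 below with 0.01, and in ATP synthase 5 above and 8 below with -0.04. With an array left out these medians ran from -0.02 to 0.05, from 0.00084 to 0.20, from -0.06 to 0.11 and from -0.10 to 0.04. At days 20 to 80 the same lists had 21 of 22, 8 of 8, 9 of 10 and 13 of 13 members below 0, with medians of -0.18, -0.23, -0.16 and -0.16, where 45.8 percent of all units lay above 0 and 54.2 percent below.

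The medians of complex I, complex IV and ATP synthase were below 0 at day 5 and above 0 at day 10, and that of complexes II and III was above 0 at both ages. At day 5 the medians were -0.09 in complex I, 0.04 in complexes II and III, -0.15 in complex IV and -0.14 in ATP synthase. At day 10 they were 0.07, 0.13, 0.16 and 0.12 in the same order. For ATP synthase the array medians at day 5 were 1.20 and 0.83 in Indy206 flies, against 1.17 and 1.23 in control flies. At day 10 they were 0.57 and 0.46 in Indy206 flies, against 0.16 and 0.39 in control flies. The day 10 groups lay apart and the day 5 groups overlapped. No member of these 4 lists was called in the interaction.

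Glycolysis stood lower, with 3 of 10 measured members above 0 and 7 below and a median of -0.11, which was -0.03 without replicate 1 of Indy206 at day 5. Its array medians at day 5 were 0.69 and 0.73 in Indy206 flies, against 0.89 and 0.85 in control flies, without overlap, and at day 10 they overlapped. In the TCA cycle 6 of 11 lay above 0 and 5 below; mAcon2, an aconitase, which turns citrate into isocitrate, stood at 0.47, and its log2 ratios of -0.49 to -1.82 in Indy206 flies overlapped those of -0.78 to -2.09 in control flies.

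Genes of citrate use and fatty acid synthesis lay above 0 in 11 of 14 measured members and below in 3, with a median of 0.14 (-0.18 at the later ages). Without replicate 1 of the day 10 controls, whose array median of -0.67 was the lowest, the median was 0.04. The highest was Indy-2, a paralogue of Indy, with log2 ratios of -0.60 and -0.37 at day 5 and -2.93 and -1.73 at day 10 in Indy206 flies, against -1.45 and -1.18 at day 5 and -3.24 and -2.48 at day 10 in control flies. Its groups lay apart at day 5 and overlapped at day 10, and the difference over both ages was 0.68 ± 0.27 (SE; limma adjusted p = 0.734), opposite in sign to that of Indy. The ratios of Indy-2 fell from day 5 to day 10 in both genotypes, as the testis medians did. The part of testis tissue in the Indy-2 difference was not tested. Among solute carriers of citrate and dicarboxylates 7 of 11 lay above 0 and 4 below, with a median of 0.08, from 0.0029 to 0.14 with an array left out. In insulin and FOXO signalling 8 of 14 lay above 0 and 6 below, with a median of 0.06, which was -0.08 without replicate 1 of the day 10 controls; Tsc1, an inhibitor of TOR, stood at -0.31, the insulin receptor substrate chico at -0.27 and raptor, a subunit of TOR complex 1, at 0.26.

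The proteasome, which degrades ubiquitin-tagged proteins, had 6 of 25 measured members above 0 and 19 below, with a median of -0.07. At days 20 to 80 it had 24 above 0 and 1 below, with a median of 0.11. The young median was 0.0035 without replicate 1 of the day 10 controls and -0.14 without their replicate 2. Mitochondrial ribosomal proteins lay above 0 in 20 of 61 and below in 41, with a median of -0.05 (0.01 without replicate 1 of the day 10 controls), and cytosolic ribosomal proteins in 18 and 19 of 37. Antimicrobial and immune effectors, of which 7 of 25 were measured, had 1 above 0 and 6 below, with a median of -0.20. Their array medians were -1.15 and -0.91 at day 5 and -1.25 and -1.46 at day 10 in Indy206 flies, against -1.33 and -1.04 at day 5 and 0.20 and -1.92 at day 10 in control flies. Replicate 1 of the day 10 controls thus stood far above the other 7 arrays for this list, and without single arrays the list's median ran from -0.41 to 0.07. Detoxifying cytochrome P450 enzymes had 45 of 78 above 0 and 33 below, glutathione S-transferases 13 of 27 above and 14 below, and inducible heat shock proteins 5 of 8 above and 3 below. Enzymes of fatty acid oxidation had 5 of 10 above 0 and 5 below, antioxidant enzymes 5 of 12 above and 7 below, peptidoglycan recognition proteins 7 of 9 above and 2 below and genes of the circadian clock 3 of 11 above and 8 below. Cuticle proteins had 44 of 83 above 0 and 39 below, and neuropeptides 6 of 19 above and 13 below.

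Markers of organs that lie mostly in the abdomen were read beside these lists. Midgut enzymes, the digestive proteases, lysozymes and amylases of the gut, lay above 0 in 20 of 25 measured members (of 29) and below in 5, with a median of 0.44. The median was 0.15 at day 5 and 0.75 at day 10. Array medians were 0.33 and -0.14 at day 5 and 0.04 and -0.28 at day 10 in Indy206 flies, against -0.17 and 0.00 at day 5 and -1.05 and -0.90 at day 10 in control flies, so the day 10 groups lay apart and the day 5 groups overlapped. Jon99Ci, a Jonah protease, stood at 1.22 ± 0.32 (SE; limma adjusted p = 0.726). At days 20 to 80 the list's median was -0.07. Under quantile normalization the young median was 0.20, and with an array left out it ran from 0.26 to 0.61. The part of midgut tissue in the differences of Lsp2, CG6271 and the other genes was not tested.

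Accessory gland markers lay above 0 in 11 of 13 and below in 2, with a median of 0.27, and array medians of -1.52 and -1.65 at day 5 and -3.04 and -2.18 at day 10 in Indy206 flies, against -1.77 and -1.45 at day 5 and -3.70 and -2.96 at day 10 in control flies. The groups overlapped at both ages. With an array left out the accessory gland median ran from 0.14 to 0.41. Testis markers, described above, were measured for 6 of 12 members. Haemocyte markers lay above 0 in 1 of 8 and below in 7, with a median of -0.19, from -0.31 to -0.09 with an array left out. The smallest p among them was that of Hml, hemolectin, a clotting protein of blood cells, with log2 ratios of -0.10, 0.17, 0.74 and 0.09 in Indy206 flies, against 0.61, 0.60, 0.94 and 1.07 in control flies, and a difference of -0.58 ± 0.14 (SE; limma adjusted p = 0.726). Neuron markers lay above 0 in 2 of 11 and below in 9, with a median of -0.12, from -0.13 to -0.04 with an array left out. Photoreceptor markers had 5 of 11 above 0 and 6 below with a median of -0.01, muscle markers 10 of 15 above and 5 below with 0.02, and odorant-binding markers of the head 9 of 11 above and 2 below with 0.08. With an array left out these 3 medians ran from -0.07 to 0.03, from -0.05 to 0.14 and from 0.06 to 0.18.

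**Figure D5:**
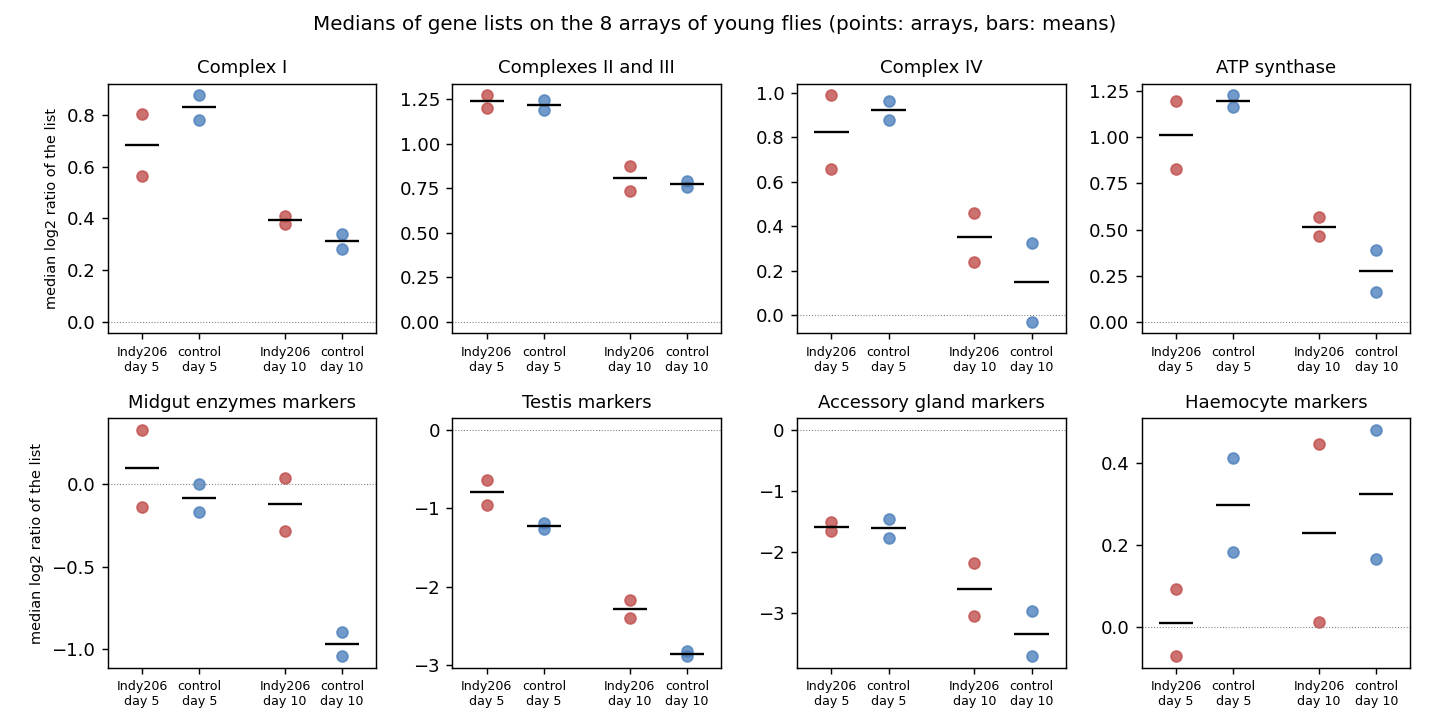
Median log2 ratio of 8 gene lists on each of the 8 arrays, Indy206 in red and control in blue at day 5 and at day 10, with bars at the mean of 2 arrays; the vertical scale differs between panels. The Indy206 and control arrays of day 10 lie apart for midgut enzymes, testis markers, complex I and ATP synthase, and the respiratory lists overlap at day 5.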

How the data were processed

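Per the labels, RNA of pooled males underwent T7 linear amplification once and was labelled with Cy5, the reference with Cy3, and no dye swap is listed. The authors deposited a value for every spot and array, read here as a log2 ratio. The submitters' processing notes name limma, with no version. For background correction, normalization, spot filter and log base, the answer is not given in the sources used here. Base 2 and sample over reference were taken as likely. No value was missing, so nothing was imputed. The main fits used the deposited values without a further normalization, and quantile and scale normalization were run as alternatives. Signal over background was not analysed here.

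Of 20000 spots, 10828 had 1 gene in the platform annotation, 227 several and 8945 none paired. Names were updated through the gene table of Release 6 plus ISO1 MT, which matched 10824 of the first kind. Spots of a gene were averaged (793 genes had more than 1).

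Linear models came from limma 3.58.1 under R 4.3.3 (lmFit, then eBayes): age and genotype on 8 arrays (5 residual degrees of freedom), 4 group means for single ages and the interaction, 16 group means on 42 arrays for young minus later (26), and 12 on 34 arrays for days 20 to 80 (22). P-values were adjusted by Benjamini-Hochberg over 19077 units and called under 0.05. The models were tested on simulated data. Replicates came from different pools of males, so p-values of the fits with group means measure the spread between pools. In the fit of age and genotype that spread also holds any change of the genotype difference between the ages. Array numbers limit the precision. Plots used Python 3.11.15 and matplotlib 3.10.9.

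The comparison, the gene lists and the naming rule were chosen with earlier results of these data known. Named were Indy; 12 genes of smallest p on each side with the same sign at both ages, without bare CG or CR symbols; up to 4 members per list by p; 5 per side for each change of the difference, likewise without such symbols; 8 per side of those called at days 20 to 80; and 3 per side at each age. CG11400, CG18179, CCT2, CCT5, Rpn2 and ND-39 were chosen after their values were seen.

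Alternatives were quantile and scale normalization, array weights, robust variance, single spots, 1-gene units, a minimum difference of 0.2, the spread of all 42 arrays, a replicate block, a testis and accessory gland covariate, no age block and each array left out. A midgut covariate and the values by array left out for genes called later and for lists were added after seeing the data.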

Additional observations from a re-analysis of the deposited data

How the results depend on the processing

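With 4 arrays per genotype, differences under about 0.22 had intervals that reached 0 for a typical unit. Between Indy206 and control in young flies the count stayed at 0 under the alternatives run, each array left out included, except for 1 unit with the spread of all 42 arrays, where day 10 also had 1. Indy stayed below control in 20 alternatives, between -0.95 with a replicate block and -0.34 with the midgut covariate, and between -0.88 and -0.63 with an array left out. The 23 other named genes of the young comparison changed no sign, and their lowest adjusted p was 0.139. At days 20 to 80 the 75 calls were 130 with array weights, 16 with a minimum difference of 0.2 and 58 with a replicate block, and from 58 to 102 with an array left out. For young minus later the count was 15 with a replicate block, and between 2 and 35 with an array left out. With an array left out the counts ran from 0 to 6 at day 5, from 0 to 176 at day 10, and from 0 to 17 for the interaction. Replicate numbers were not taken as pairs: at days 5 and 10 the deviations of same-numbered arrays correlated at -0.05 in the pair of day 5 and at 0.10 in both pairs of day 10, where 2 arrays per group make them 1 value. Over all ages 13 of 19 pairs were over 0.1, from -0.35 to 0.62, and at day 50 all 3 were, from 0.36 to 0.62. The replicate block left 0 calls in young flies. Of the named genes called at days 20 to 80, 7 changed the sign of their young difference. For smp-30 the young difference was -0.13 with quantile normalization, -0.080 with array weights, -0.17 with the testis and accessory gland covariate and -0.24 with the midgut covariate. For CG13742 it was 0.047 with scale normalization, 0.13 with array weights, 0.056 with a replicate block and 0.18 with the midgut covariate. For Iml1 it was -0.027 with array weights, -0.066 with a replicate block and -0.10 with the testis and accessory gland covariate, and for Cyp4d21 0.082 with a replicate block and 0.20 with that covariate. For Ctr9 it was -0.043 with the testis and accessory gland covariate and -0.055 with the midgut covariate, for Cyp6d2 0.019 and 0.0014 with these, and for veil 0.12 with the midgut covariate. With an array left out the young difference ran from -0.17 to 0.19 for CG13742, from -0.40 to 0.032 for Cyp4d21, from -0.055 to 0.15 for Iml1 and from -0.19 to 0.29 for smp-30. The cause of these changes was not tested.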
